A study of Mus musculus with 12 samples.

Results

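The genes of the proteins that bundle, branch, crosslink, cut, cap and extend actin filaments were followed as 1 module in 2 mouse cell lines of the testis. The module was a list of gene symbols, and all 47 of its genes had a row among the 17995 genes measured. They were divided by the role of their products into 2 actins, 5 bundling proteins, 4 crosslinking proteins, 3 stress fibre scaffold proteins, 8 subunits of the Arp2/3 complex, 5 activators of that complex, 4 severing proteins, 4 capping proteins, 7 elongation factors, 3 proteins that link filaments to the membrane and 2 heavy chains of nonmuscle myosin II.

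The RNA-seq data came from C18-4, a line derived from mouse spermatogonia, and TM4, a line derived from mouse Sertoli cells. The study asked what is lost when M5, a muscarinic acetylcholine receptor encoded by Chrm5, is knocked down. In each line, 3 libraries came from cells that received lentiviral shRNA against M5 (shM5, a mixture of 3 shRNAs to different positions of the gene) and 3 libraries from cells that received the same vector with a control sequence (shNC), which made 12 libraries. The shNC groups are labelled C3NC for C18-4 cells and TM3NC for TM4 cells, all libraries carry the strain label IRC, and the 2 lines were cultured in different media. The cells were stably transfected, and neither the time of harvest nor the number of separate transfections behind the 3 libraries of a group is given, so the p-values below measure the spread between these libraries, which may be technical. The values are RPKM, reads on a gene scaled by its length and by the size of the library, so levels of different genes can be compared per length. Read numbers are not given, and the depth of a library in reads is unknown. The value of a single read, taken from the steps between low values, differed little between libraries (relative values from 0.98 to 1.021).

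Actin filaments grow at one end, are cut and disassembled behind it, and are arranged by other proteins into bundles, meshworks and branched networks. The Arp2/3 complex starts a new filament on the side of an old one when a WASP or WAVE protein activates it, fascin, plastin, espin and Eps8 hold filaments in parallel bundles, and filamin and alpha-actinin tie them into networks. In the seminiferous epithelium, bundled actin beneath the membrane of the Sertoli cell is the core of the ectoplasmic specialisation, the anchoring junction that holds Sertoli cells to each other and to spermatids, and its turn between a bundled and a branched state accompanies the movement of germ cells.

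Several libraries stood apart before any comparison was made. Over all genes tested, the distance (root mean square of log2 differences) between TM4 shNC replicate 3 and the other TM4 shNC libraries was 0.640 and 0.642, against 0.202 to 0.257 between the same library and the 3 TM4 shM5 libraries. Replicate 3 of C18-4 cells lay apart in both groups, at 0.418 and 0.438 from the other shNC libraries and at 0.376 and 0.388 from the other shM5 libraries. Chrm5 itself was listed at 0 RPKM in 10 of the 12 libraries and at 0.01 RPKM in C18-4 shNC replicate 2 and TM4 shNC replicate 1, so its mRNA does not check which libraries received shM5. The lines were not borne out by all of their defining markers. In C18-4 cells, 11 of 14 spermatogonial markers measured had a mean below 0.5 RPKM, Ret, Zbtb16, Ddx4, Dazl and Kit were between 0 and 0.05 RPKM, and Uchl1 was at 76.8 to 140.02 RPKM. Wt1, a Sertoli cell factor, was at 53.9 to 72.3 RPKM in C18-4 cells and at 0.06 to 0.15 RPKM in TM4 cells, where Sox9 was at 1.11 to 1.74 RPKM and Kitl at 18.4 to 49.5 RPKM. C18-4 and TM4 are therefore used below as the names of the lines only.

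The module was abundant in both lines, and it was led by the same 4 genes in every library. Actg1 and Actb, which encode the cytoplasmic gamma and beta actins, Cfl1, which encodes the severing protein cofilin 1, and Pfn1, which encodes the monomer-binding protein profilin 1, held the first 4 ranks in all 12 libraries. The 47 genes together held between 1.45% and 2.14% of all summed RPKM, and 44 to 46 of them were above 1 RPKM in each library. Was, the WASP gene of blood cells, was at 0 to 0.23 RPKM throughout and was never tested. Actb, Actg1, Cfl1 and Pfn1 have near-identical copies elsewhere in the mouse genome, and how reads shared with such copies were counted is not given, so their levels are less certain than those of the other genes.

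**Figure D1:**
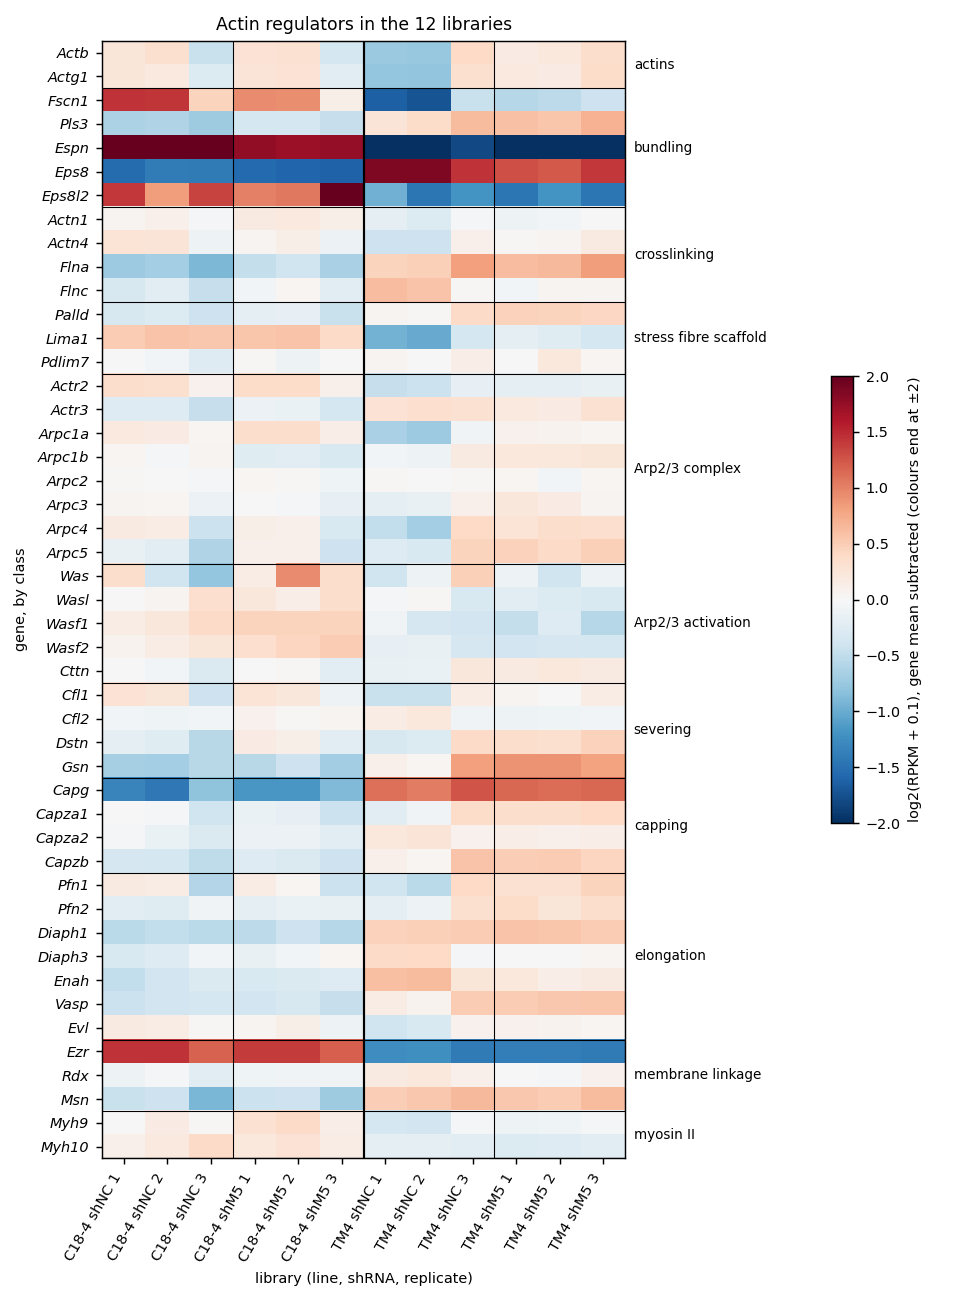
Each row is 1 of the 47 genes, grouped by class, and each column 1 of the 12 libraries. Colour shows log2(RPKM + 0.1) minus the mean of the gene over all libraries, from blue (lower) to red (higher), with colours ending at ±2. Fscn1, Espn, Ezr and Lima1 are red in C18-4 cells, Eps8, Capg, Flna and Gsn are red in TM4 cells, and replicate 3 of C18-4 cells and replicates 1 and 2 of TM4 shNC are paler or bluer than their neighbours for the actins, Arpc4, Cfl1 and Pfn1.

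In C18-4 cells, the module moved little with shM5. Of 46 genes tested with limma on log2(RPKM + 0.1), 0 had an adjusted p below 0.05, against 68 of all 11611 genes (0.586%), and before adjustment 8 of the 46 were below that value, against 12.3% of all genes. Arpc1b came nearest, with an adjusted p of 0.158. The median log2 fold change of the 46 genes was 0.06, against -0.0024 for all genes, with 35 genes higher and 11 lower with shM5. In these bulk libraries, a lower level per cell and fewer cells that express a gene cannot be told apart. Replicate 3 of C18-4 cells deviated alike in both groups. Replicates 1 and 2 showed no clear pairing by number. Over all genes tested, shNC replicate 1 lay at 0.322 and 0.326 from shM5 replicates 1 and 2, and shNC replicate 2 at 0.323 and 0.313. A block by replicate number thus rests mainly on replicate 3. With the replicate number as a block in the fit, 10 of the 46 genes passed the same threshold, 7 of them higher and 3 lower. Of all genes, 11.9% passed it, 5.21% higher and 6.73% lower. These 10 genes were called in the blocked fit and not in the fit without the block, and they came from 6 of the 11 classes.

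Bundling genes did not move together. Fscn1, which encodes fascin 1, a protein that packs filaments into tight parallel bundles, was at 535, 528 and 268 RPKM in shNC replicates 1, 2 and 3 and at 380, 374 and 212 RPKM in shM5 replicates 1, 2 and 3. The groups overlapped because replicate 3 was low in both, but within each replicate number shM5 was the lower library. The log2 fold change was -0.44 (SE 0.047 with the block and adjusted p 0.0025, SE 0.33 without it and adjusted p 0.679), and it moved between -0.77 and -0.17 when single libraries were left out. Pls3, which encodes plastin 3, went the other way, at 40.5, 41.4 and 38.6 RPKM with shNC and at 49.1, 49.1 and 45.9 RPKM with shM5 (log2 fold change 0.26, SE 0.048, adjusted p 0.0155 with the block). Here all 3 shM5 libraries lay above all 3 shNC libraries. Expressed as a ratio within each library, Fscn1 to Pls3 was 13.2, 12.8 and 6.96 with shNC and 7.73, 7.62 and 4.63 with shM5. Espn, which encodes espin, a bundling protein of the ectoplasmic specialisation and of sensory cell bundles, was low, at 1.91, 1.75 and 2.35 RPKM with shNC and at 1.34, 1.28 and 1.33 RPKM with shM5 (log2 fold change -0.56, SE 0.15, adjusted p 0.0458 with the block). Its groups did not overlap, and the counting error at such levels is not known. The remaining bundling genes, Eps8 and Eps8l2, were not called. Eps8, whose product caps and bundles filaments, was at 12.6, 14.01 and 13.9 RPKM with shNC and at 12.6, 12.3 and 11.96 RPKM with shM5, and Eps8l2 ranged from 0.39 to 1.02 RPKM over the 6 libraries.

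Crosslinking genes gave 2 of the 10 calls, both filamins. Flna, which encodes filamin A, the main crosslinker of orthogonal actin networks, was at 79.5, 82.8 and 71.3 RPKM with shNC and at 94.9, 100.5 and 84.0 RPKM with shM5 (log2 fold change 0.26, SE 0.044, adjusted p 0.0118 with the block). Flnc, the filamin best known from muscle, was at 52.3, 56.2 and 47.8 RPKM with shNC and at 62.9, 67.1 and 56.3 RPKM with shM5 (log2 fold change 0.25, SE 0.046, adjusted p 0.0146 with the block). In both genes the shM5 libraries lay above all shNC libraries. The alpha-actinins were not called. Actn1 was at 125.4 to 139 RPKM with shNC and at 139.6 to 148 RPKM with shM5 without overlap, and Actn4 at 144 to 187 and 143 to 168 RPKM. In the stress fibre scaffold class, Palld, Lima1 and Pdlim7, which encode palladin, EPLIN and enigma, had log2 fold changes between -0.03 and 0.08.

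Within the Arp2/3 complex, single subunits diverged and the class as a whole had a median log2 fold change of 0.02. Arpc1b, a copy of the ARPC1 subunit, was at 249.99, 237 and 254 RPKM with shNC and at 207, 212 and 199 RPKM with shM5, without overlap (log2 fold change -0.26, SE 0.049, adjusted p 0.0153 with the block). Arpc1a, the other copy of the same subunit, was at 82.5, 81.1 and 74.6 RPKM with shNC and at 92.5, 92.5 and 79.5 RPKM with shM5, and was not called (log2 fold change 0.15, adjusted p 0.0748 with the block). The 2 copies thus lay on opposite sides, and Arpc1a held 24.3% ± 1.45 (SD, n = 3) of their summed RPKM with shNC and 29.96% ± 1.22 (SD, n = 3) with shM5. Arpc5, a further subunit, was at 76.0, 71.5 and 55.2 RPKM with shNC and at 90.0, 90.0 and 62.8 RPKM with shM5 (log2 fold change 0.25, SE 0.049, adjusted p 0.0180 with the block), with groups that overlapped through replicate 3. In the fit without the block, the log2 fold change of Arpc5 was 0.12 without shNC replicate 3, 0.17 without shM5 replicate 1 or 2, and 0.43 without shM5 replicate 3. The other subunits, Actr2, Actr3, Arpc2, Arpc3 and Arpc4, were not called in either fit. Among the activators, Wasf2, which encodes WAVE2, was at 31.7, 33.2 and 35.8 RPKM with shNC and at 37.9, 40.5 and 42.8 RPKM with shM5 (log2 fold change 0.27, SE 0.050, adjusted p 0.0155 with the block). No shNC library of Wasf2 reached the lowest shM5 library. Wasf1, which encodes WAVE1, did not overlap either, at 11.1 to 12.98 and 13.5 to 13.6 RPKM, but was not called (adjusted p 0.111 with the block), and Wasl and Cttn, which encode N-WASP and cortactin, overlapped.

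Dstn had the largest positive difference of the module in C18-4 cells. Dstn, which encodes destrin, a severing protein of the cofilin family, was at 147.9, 143 and 115 RPKM with shNC and at 191, 183 and 146 RPKM with shM5 (log2 fold change 0.35, SE 0.041, adjusted p 0.0030 with the block). Its groups overlapped only through shM5 replicate 3. Cfl1, its far more abundant relative, was at 1226 to 2002 RPKM with shNC and at 1531 to 1988 RPKM with shM5 and was not called, and neither were Cfl2 and Gsn. Myh9, which encodes the heavy chain of nonmuscle myosin IIA, was at 153, 170.0 and 155 RPKM with shNC and at 189, 199 and 166 RPKM with shM5 (log2 fold change 0.21, SE 0.050, adjusted p 0.0340 with the block), while Myh10, the heavy chain of IIB, was at 52.3 to 63.6 and 54.1 to 59.2 RPKM. The actins, the capping proteins, the elongation factors and the membrane linkers gave 0 calls among 16 genes in both fits, with unadjusted p below 0.05 for 0 of the 16 without the block.

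**Figure D2:**
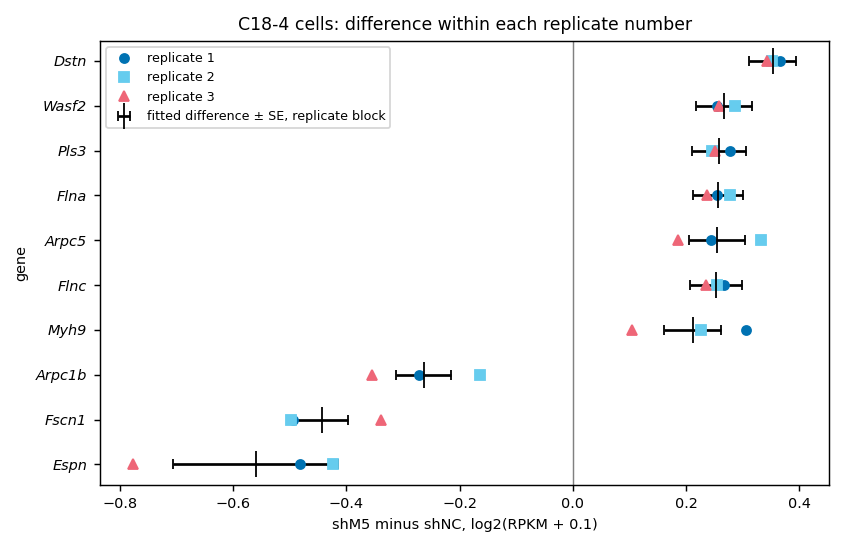
For the 10 genes called with the replicate block in C18-4 cells, coloured points show shM5 minus shNC in log2(RPKM + 0.1) within replicate numbers 1, 2 and 3, and the black bar shows the fitted difference ± SE. All 3 points lie on the same side of 0 for each of the 10 genes, from Dstn at 0.35 to Espn at -0.56. The genes were chosen by this fit, which favours differences of the same sign, so the shared side is no further evidence. Genes that were not called, such as Actr3 and Evl, also had the same sign in all 3, and the share of all genes is not given.

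Other genes of the actin cytoskeleton were listed with the module. Of 78 such genes, 66 were tested in C18-4 cells, 1 was called without the block and 22 with it, 15 higher and 7 lower, against 11.9% of all genes with the block. Cotl1, which encodes a coactosin-like protein that binds filaments, was the 1 gene called in both fits (log2 fold change -0.85, adjusted p 0.0410 without the block and 3.58e-04 with it). The light chains of myosin II were higher with shM5, with log2 fold changes in the blocked fit of 0.70 for Myl9 (adjusted p 0.0446), 0.32 for Myl12b (adjusted p 0.0446), 0.23 for Myl6 (adjusted p 0.0160) and 0.17 for Myl12a (adjusted p 0.0298). Myl9 was at 6.35, 6.81 and 6.28 RPKM with shNC and at 13.3, 13.7 and 6.48 RPKM with shM5, so its replicate 3 did not share the difference. Others that were higher were Lasp1 (log2 fold change 0.36), Rhob (0.42), Rock1 (0.27), Cyfip1 (0.22), Coro1c (0.22), Twf1 (0.21), Wdr1 (0.20), Brk1 (0.19), Cap1 (0.18) and Rac1 (0.15), and those that were lower were Actn3 (log2 fold change -0.52), Wipf1 (-0.52), Cobl (-0.46), Coro2b (-0.36), Fmnl2 (-0.35) and Spire1 (-0.31). Some of these values depended on replicate 3. Within replicate numbers 1, 2 and 3, the log2 difference was 0.63, 0.59 and 0.03 for Rhob and 0.43, 0.49 and 0.04 for Myl12b. As for Myl9, replicate 3 thus hardly shared the difference. In the fit without the block and without shNC replicate 3, the log2 fold change was 0.05 for Twf1, 0.09 for Wdr1, 0.11 for Cyfip1, 0.12 for Brk1, 0.22 for Lasp1 and -0.22 for Coro2b, and without shM5 replicate 3 it was 0.32 for Twf1 and 0.31 for Wdr1. By list, and against 5.21% of all genes higher and 6.73% lower, the calls were 1 higher and 1 lower of 4 crosslinkers and bundlers, 2 higher and 2 lower of 10 branching genes, 4 higher and 2 lower of 11 genes of monomer binding and disassembly, 0 higher and 2 lower of 13 formin and pointed-end genes, 3 higher and 0 lower of 17 signalling genes, 4 higher and 0 lower of 5 myosin II chains, and 1 higher and 0 lower of 6 genes of filament sides.

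In TM4 cells, the result rested on a single library. Of 44 genes of the module tested, 0 had an adjusted p below 0.05, as did 0 of all 11016 genes (0%), while before adjustment 7 of the 44 and 26% of all genes were below that value. No adjusted p in the module was under 0.192. The median log2 fold change was 0.19, against 0.036 for all genes, with 30 genes higher and 14 lower with shM5. Without TM4 shNC replicate 3, the library that lay near the shM5 libraries, 36 of the 44 genes were called, 26 higher and 10 lower, against 67.4% of 11026 genes, 36.5% higher and 30.9% lower. That library was above both other shNC libraries for 33 of the 47 genes and below both for 12, and it lay nearer to the mean of the shM5 libraries than to the mean of shNC replicates 1 and 2 for 42 of the 47. Shares of all genes are not given for these counts. By the distances above, the library also lay nearer the shM5 libraries over all genes tested, so the counts are not read as a trait of the module.

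The actins showed this pattern. Actb was at 920, 909 and 2019 RPKM in TM4 shNC replicates 1, 2 and 3 and at 1721, 1778 and 1962 RPKM with shM5. Actg1 was at 1047, 1036 and 2234 RPKM with shNC and at 2058, 2012 and 2299 RPKM with shM5. In both genes shNC replicate 3 lay among or above the shM5 libraries, so the groups overlapped. The log2 fold change was 0.61 for Actb and 0.66 for Actg1 with all libraries (adjusted p 0.212 and 0.195), and 0.99 and 1.02 without shNC replicate 3 (adjusted p 6.34e-06 and 6.29e-06). The latter p-values are no independent evidence of an effect of shM5. The library was left out because it lay near the shM5 libraries, which favours separation, and 67.4% of all genes were called in that fit. The share of Actb in the summed RPKM of the 2 actins stayed between 45.5% and 47.5% over the 6 TM4 libraries, so both moved in step.

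The same pattern was present in genes of other roles. Fscn1 was at 63.5, 59.5 and 143.7 RPKM in TM4 shNC replicates 1, 2 and 3 and at 133, 137 and 148 RPKM with shM5 (log2 fold change 0.77 with all libraries, 1.18 without shNC replicate 3). Arpc4, an Arp2/3 subunit, was at 31.7, 27.7 and 58.4 RPKM with shNC and at 53.6, 56.6 and 56.3 RPKM with shM5 (log2 fold change 0.58 and 0.90). Pfn1, which encodes profilin 1, the protein that feeds monomers to growing ends, was at 515, 468 and 893 RPKM with shNC and at 837, 836 and 920.2 RPKM with shM5 (log2 fold change 0.53 and 0.81). In each of these genes shNC replicate 3 was level with shM5. Gsn, which encodes gelsolin, a calcium-activated severing and capping protein, was at 70.9, 67.9 and 117 RPKM with shNC and at 123, 124 and 115 RPKM with shM5 (log2 fold change 0.55 and 0.80). Arpc1a was at 46.3, 43.9 and 68.7 RPKM with shNC and at 76.7, 75.7 and 74.5 RPKM with shM5 (log2 fold change 0.54 and 0.75). Lima1, whose product EPLIN stabilises filaments, was at 33.5, 32.0 and 50.5 RPKM with shNC and at 56.3, 54.5 and 50.6 RPKM with shM5 (log2 fold change 0.51 and 0.71). Arpc1a and Lima1 were 2 of the 10 genes in TM4 cells whose groups did not overlap with all libraries kept. The others were Palld, Arpc1b and Vasp, with shM5 above, and Eps8, Wasf2, Enah, Rdx and Myh10, with shM5 below. For several of them the gap was narrow, since shNC replicate 3 lay close to shM5 here too. That library was at 50.48 RPKM for Lima1, against 50.64 in the lowest shM5 library. For Wasf2 it was at 23.76 RPKM, against 23.75 in the highest. Of all genes, 26.8% had no overlap in TM4 cells, 15.7% with shM5 above and 11.1% with shM5 below. In C18-4 cells, 10 of 46 genes of the module had no overlap, 7 with shM5 above and 3 below, against 18.9% of all genes. They are not the same 10 genes as those called with the block. Actn1, Wasf1, Cfl2 and Eps8 did not overlap and were not called, whereas Fscn1, Arpc5, Dstn and Myh9 were called and overlapped.

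Genes on the lower side in TM4 cells were fewer. Eps8 was at 135, 135 and 100.5 RPKM with shNC and at 90.4, 87.2 and 98.6 RPKM with shM5 (log2 fold change -0.41 with all libraries, adjusted p 0.192, and -0.56 without shNC replicate 3, adjusted p 7.94e-05). Enah, which encodes Mena, an elongation factor of filopodia, was at 67.4, 68.9 and 52.3 RPKM with shNC and at 51.2, 48.6 and 50.1 RPKM with shM5 (log2 fold change -0.32 and -0.45). Flnc was at 100.3, 97.0 and 66.5 RPKM with shNC and at 63.1, 67.8 and 68.3 RPKM with shM5, and Diaph3, a formin, at 51.6, 52.1 and 39.1 and at 39.9, 39.3 and 40.6 RPKM. As for the actins, shNC replicate 3 sat with the shM5 libraries in these genes. That library was left out because it lay near the shM5 libraries, a choice that favours separation of the groups. By class and without it, against 67.4% of all genes (36.5% higher and 30.9% lower), the calls were 2 higher and 0 lower of 2 actins, 2 higher and 0 lower of 3 stress fibre scaffold genes, 6 higher and 0 lower of 8 Arp2/3 subunits, 3 higher and 1 lower of 4 severing genes, 4 higher and 2 lower of 7 elongation genes, 3 higher and 1 lower of 4 crosslinking genes, 2 higher and 1 lower of 4 capping genes, 2 higher and 1 lower of 3 bundling genes tested, 1 higher and 0 lower of 2 myosin II heavy chains, 1 higher and 2 lower of 4 activators tested, and 0 higher and 2 lower of 3 membrane linkers. Among the other actin genes, 0 of 57 tested were called with all libraries and 44 without shNC replicate 3, 32 higher and 12 lower.

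**Figure D3:**
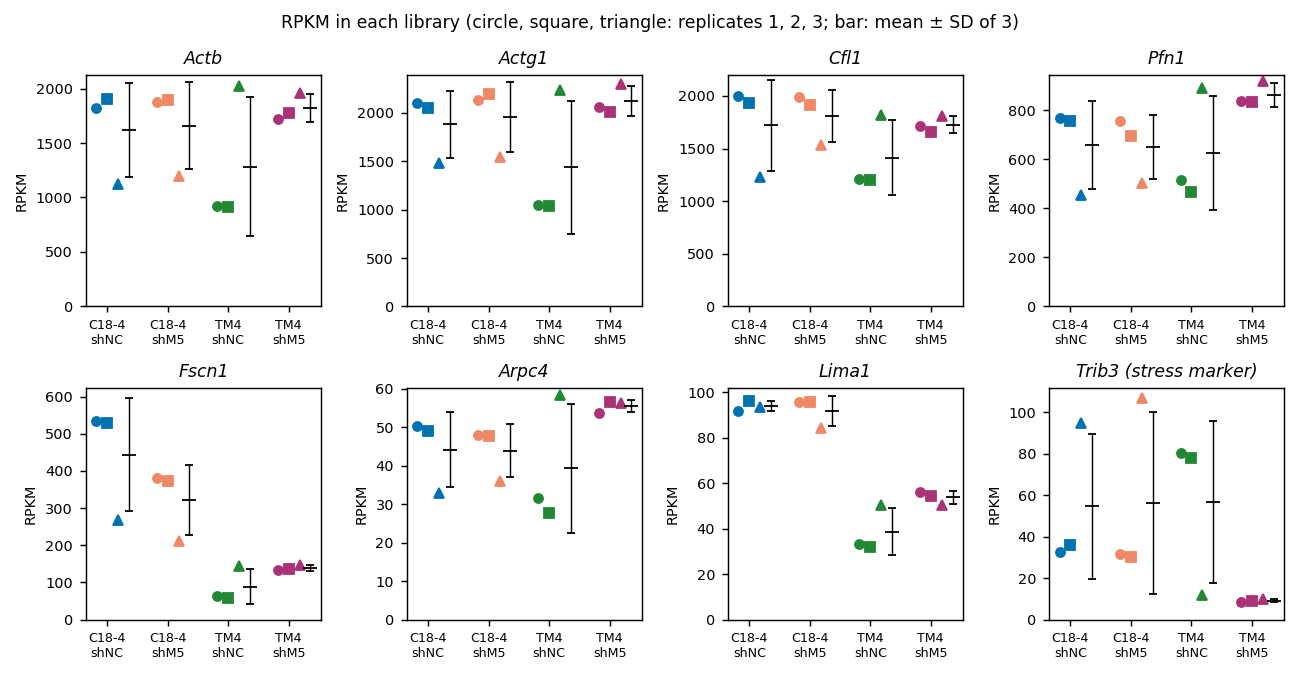
RPKM of 7 genes of the module and of the stress gene Trib3 in each library, with circles, squares and triangles for replicates 1, 2 and 3 and black bars for the mean ± SD of 3 libraries. The triangles of both C18-4 groups and the circle and square of TM4 shNC are low for Actb, Actg1, Cfl1, Pfn1, Fscn1 and Arpc4 and high for Trib3, and Lima1 is low in TM4 shNC replicates 1 and 2 without being low in C18-4 shNC replicate 3.

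The libraries low for these actin genes were high for a group of stress genes. In both C18-4 groups replicate 3 was below replicates 1 and 2 for the same 26 of the 47 genes, and for 22 of these TM4 shNC replicate 3 was above its own replicates 1 and 2. Shares of all genes with these patterns are not given, and the same libraries also stood apart over all genes tested. The summed RPKM of 6 listed targets of the stress factor ATF4 (Ddit3, Trib3, Chac1, Asns, Atf3 and Sesn2) ranged from 398 to 755 in C18-4 shNC, from 391 to 737 in C18-4 shM5, from 274 to 998 in TM4 shNC and from 236 to 256 in TM4 shM5. Trib3, for example, was at 32.6, 36.2 and 95.1 RPKM in C18-4 shNC, at 31.8, 30.3 and 107 RPKM in C18-4 shM5, at 80.5, 78.1 and 11.68 RPKM in TM4 shNC and at 8.60, 9.01 and 9.83 RPKM in TM4 shM5. Its high libraries are the low libraries of Actb. The part of this difference between libraries in the values of the module was not tested.

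A direct test of whether shM5 acted differently in the 2 lines gave 0 calls among 45 genes of the module, against 0.102% of 11773 genes, with 11 of the 45 at an unadjusted p below 0.05, against 20.9% of all genes. The comparisons in each line use separate controls. Arpc1b had the smallest p (difference of log2 fold changes, TM4 minus C18-4, 0.48, SE 0.10, adjusted p 0.124). It was at 236, 229 and 276 RPKM with shNC and at 284, 284 and 289 RPKM with shM5 in TM4 cells, all higher with shM5, where in C18-4 cells all shM5 libraries were lower. Wasf2 was the reverse, at 26.8, 27.1 and 23.8 RPKM with shNC and at 23.2, 23.8 and 23.6 RPKM with shM5 in TM4 cells (difference -0.40, SE 0.11, adjusted p 0.167), and Fscn1 had the largest difference of all, at 1.21 (SE 0.51, adjusted p 0.225). Without TM4 shNC replicate 3, 23 of the 45 genes were called, against 38% of all genes.

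Between the lines, the module differed as often as other genes did. In the shNC libraries, 25 of 45 genes tested were called, 16 higher and 9 lower in TM4 cells, against 55.2% of 11810 genes, 20.5% higher and 34.7% lower. Groups did not overlap for 27 of the 47 genes, counted with those too low to be tested and including Eps8l2 of these. The share was 63.6% of the 11810 genes tested, so the 2 sets are not quite alike. The median log2 difference, TM4 minus C18-4, was 0.10 for the module and -0.15 for all genes. After quantile normalisation, which set the median of all genes at 0.01, the calls of all genes changed from 2422 higher and 4095 lower to 3357 higher (28.4%) and 3281 lower (27.8%), and those of the module were 16 higher and 10 lower, with the 25 genes called before among them in the same direction. Line and culture medium cannot be told apart here.

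Membrane linkage showed the clearest exchange of relatives. The ezrin, radixin and moesin proteins tether filaments to the plasma membrane and are close in sequence. Ezr was at 433, 431 and 359 RPKM in C18-4 shNC and at 67.1, 68.1 and 59.7 RPKM in TM4 shNC, 6.26-fold lower in TM4 cells (log2 fold change -2.65, SE 0.11, adjusted p 2.01e-06). Msn was at 155, 159 and 111 RPKM in C18-4 shNC and at 297, 306 and 329.99 RPKM in TM4 shNC, 2.22-fold higher in TM4 cells (log2 fold change 1.15, SE 0.15, adjusted p 6.89e-04). Rdx differed least of the 3 (log2 fold change 0.28, adjusted p 0.0362). As shares of their summed RPKM, Ezr held between 64.4% and 66.9% over the 6 C18-4 libraries and between 12.7% and 14.9% over the 6 TM4 libraries, and Msn between 20.8% and 24.3% and between 65.9% and 69.99%. Neither range overlapped between the lines, with shM5 or without.

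**Figure D4:**
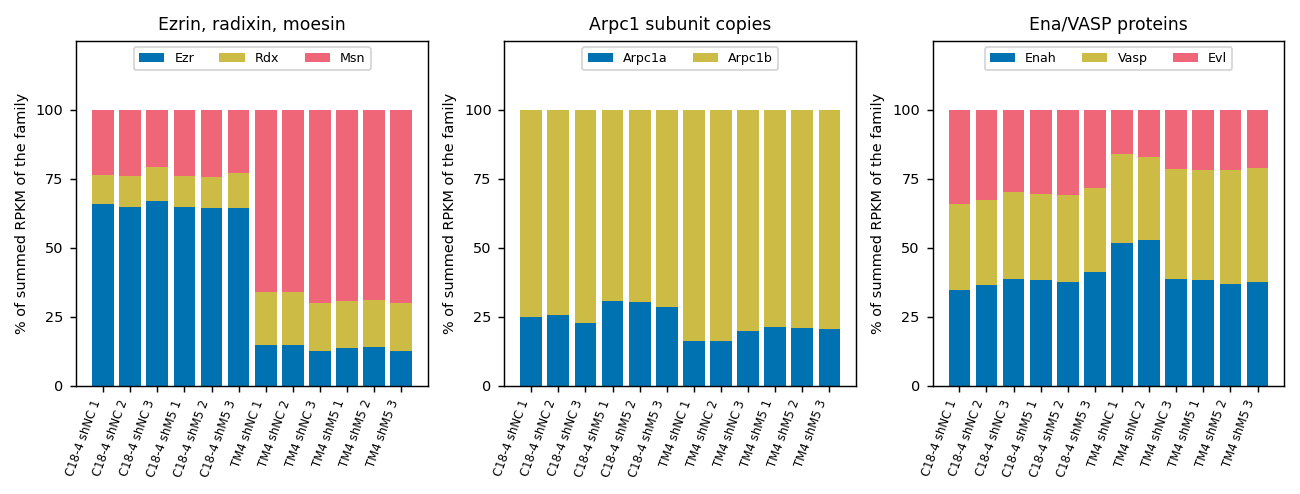
Stacked bars give the share of each gene in the summed RPKM of its family in each of the 12 libraries, for the ezrin, radixin and moesin genes, for the 2 copies of the ARPC1 subunit and for the Ena/VASP genes. Ezr holds 64.4% to 66.9% in C18-4 cells and 12.7% to 14.9% in TM4 cells, and Arpc1a holds 22.7% to 30.9% and 16.1% to 21.2%.

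Levels of single bundling genes also differed between the lines. Eps8 was at 12.6, 14.01 and 13.9 RPKM in C18-4 shNC and at 135, 135 and 100.5 RPKM in TM4 shNC, 9.02-fold higher in TM4 cells (log2 fold change 3.17, SE 0.14, adjusted p 2.57e-06), the largest difference upward in the module. Fscn1, given by library above, was lower in TM4 cells (log2 fold change -2.37, SE 0.41, adjusted p 0.0025), with the highest TM4 library at 143.7 RPKM and the lowest C18-4 library at 268 RPKM. Pls3 was at 75.3, 81.2 and 97.3 RPKM in TM4 shNC, 2.09-fold above C18-4 shNC (log2 fold change 1.06, SE 0.12, adjusted p 3.01e-04). Per length, Fscn1 was thus the leading bundling gene of C18-4 cells, whereas in TM4 shNC replicates 1 and 2 Eps8 and Pls3 stood above it. In TM4 shNC replicate 3, Fscn1 led there too, at 143.7 RPKM against 100.5 for Eps8 and 97.3 for Pls3. Fscn1 also led in every TM4 shM5 library, so the order in TM4 cells depended on the library. Espn was between 1.75 and 2.35 RPKM in C18-4 shNC and was listed at 0, 0 and 0.02 RPKM in TM4 shNC, so that its transcript was close to unmeasured in the line named for Sertoli cells, and no fold is given. Eps8l2 was at 0.39 to 0.63 RPKM in C18-4 shNC and at 0 to 0.04 RPKM in TM4 shNC and was too low to be tested.

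Several crosslinking, capping and elongation genes were higher in TM4 cells. Capg, which encodes a gelsolin relative that caps but does not cut filaments, was at 33.9, 31.4 and 48.5 RPKM in C18-4 shNC and at 182, 172 and 203 RPKM in TM4 shNC, 4.97-fold higher (log2 fold change 2.31, SE 0.17, adjusted p 3.83e-05). Flna was at 179, 183 and 234 RPKM in TM4 shNC, 2.54-fold above C18-4 shNC (log2 fold change 1.34, SE 0.13, adjusted p 1.54e-04). Diaph1, a formin that elongates unbranched filaments downstream of RhoA, was at 7.67, 7.96 and 7.73 RPKM in C18-4 shNC and at 15.6, 15.7 and 16.0 RPKM in TM4 shNC, 2.01-fold higher (log2 fold change 1.01, SE 0.10, adjusted p 2.06e-04). None of these 3 genes overlapped between the lines. Gsn was at 41.6, 41.2 and 45.3 RPKM in C18-4 shNC, 1.93-fold below TM4 shNC (log2 fold change 0.95, SE 0.21, adjusted p 0.0078), and Enah was at 31.5, 33.8 and 36.3 RPKM, 1.84-fold below (log2 fold change 0.88, SE 0.13, adjusted p 0.0015). Lima1, of the stress fibre scaffold class, was lower in TM4 cells, at 91.95, 96.3 and 93.6 RPKM in C18-4 shNC and at 33.5, 32.0 and 50.5 RPKM in TM4 shNC (log2 fold change -1.31, SE 0.18, adjusted p 8.43e-04). Of the 4 capping genes, 3 were called, all higher in TM4 cells, and of the 7 elongation genes 4 were called, all higher, against 55.2% of all genes called and 20.5% called higher.

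Of the 8 subunits of the Arp2/3 complex, Actr3 was higher in TM4 cells (log2 fold change 0.63, adjusted p 0.0012), Actr2 (-0.60, adjusted p 0.0053) and Arpc1a (-0.61, adjusted p 0.0232) were lower, and 5 were not called. Arpc2 had nearly the same level in every library, from 209.6 to 229 RPKM over all 12. Of 4 activators tested, Wasf1 (log2 fold change -0.51, adjusted p 0.0183) and Wasf2 (-0.37, adjusted p 0.0212) were lower in TM4 cells. Between the shM5 libraries of the 2 lines, 7 of the 8 subunits and all 4 activators tested were called, against 71.5% of all genes. The actins were not called (log2 fold change -0.40 for Actb and -0.47 for Actg1), and without TM4 shNC replicate 3 both were lower in TM4 cells (log2 fold change -0.78 and -0.84, adjusted p 0.0274 and 0.0059), in a fit that called 32 of the 45 genes and 69.1% of all genes. Between the shM5 libraries the 2 values were 0.16 and 0.13 and were not called (adjusted p 0.421 and 0.409).

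The same comparison with the shM5 libraries, chosen after seeing the data because the TM4 shM5 libraries are alike, gave 35 of 45 genes called, 22 higher and 13 lower, against 71.5% of all genes, 29% higher and 42.5% lower. Of the 25 genes called with shNC, 22 were called again in the same direction, and the other 3 were Flnc, Diaph3 and Rdx. Among the 78 other actin genes, 44 of 65 tested were called with shNC, 17 higher and 27 lower in TM4 cells. Of all genes, 55.2% were called with shNC, 20.5% higher and 34.7% lower. The 5 largest differences upward were in Tmod1, Myl9 (log2 fold change 2.33), Pak1 (2.26), a kinase downstream of Rac, Rhob (1.22) and Tpm3 (0.89), of which Rhob turned to -0.02 with the shM5 libraries. Tmod1, a pointed-end cap, was near 0 in C18-4 shNC, at 0.06 to 0.15 RPKM, and at 1.35 to 2.41 RPKM in TM4 shNC. The 5 largest downward were near 0 in TM4 shNC. Daam2, a formin, was at 19.2 to 24.5 RPKM in C18-4 shNC and at 0.03 to 0.09 RPKM in TM4 shNC, Ssh3, a cofilin phosphatase, at 11.1 to 14.7 and 0.05 to 0.13 RPKM, Coro2b at 7.21 to 10.1 and 0.09 to 0.13 RPKM, and Coro2a at 4.79 to 8.67 and 0.08 to 0.10 RPKM. Wasf3, which encodes WAVE3, was at 7.06 to 8.55 RPKM in C18-4 shNC and was listed at 0 RPKM in all 3 TM4 shNC libraries.

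**Figure D5:**
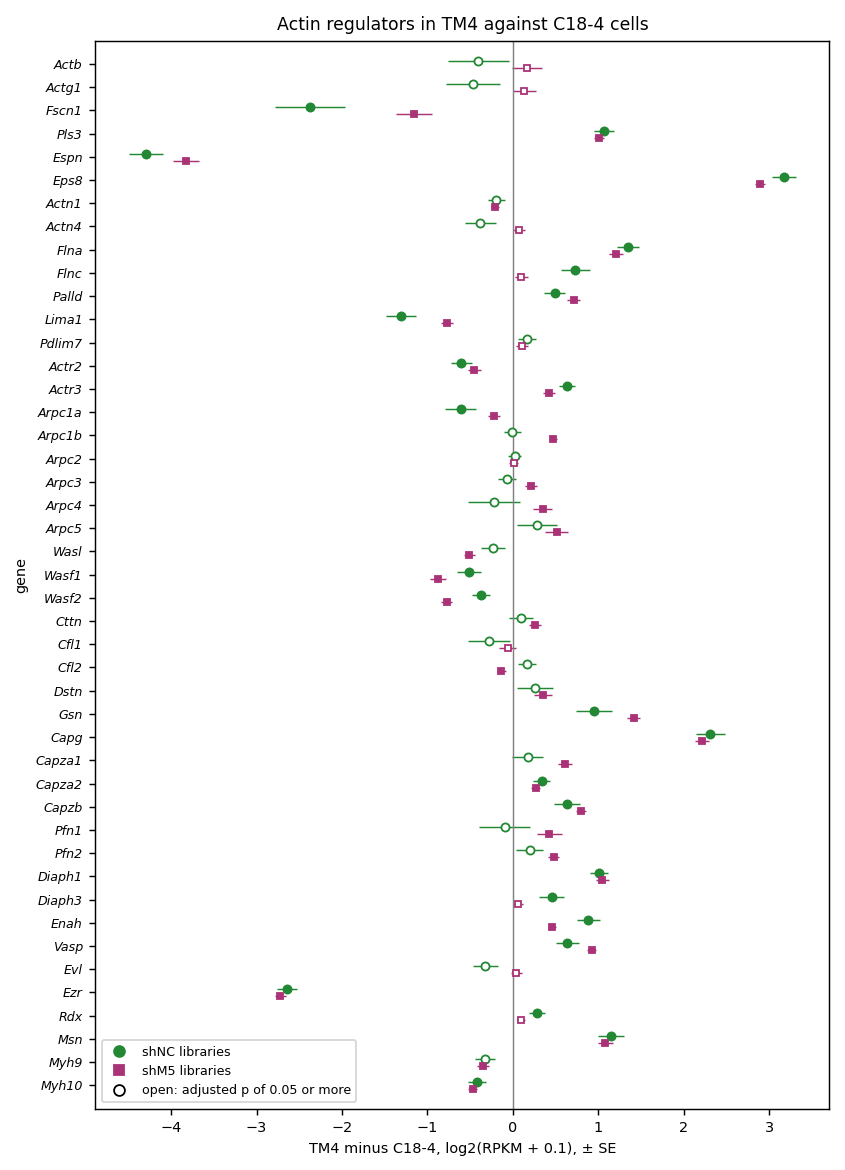
TM4 minus C18-4 in log2(RPKM + 0.1) ± SE for the 45 genes tested, in the shNC libraries (circles) and in the shM5 libraries (squares), with open symbols for an adjusted p of 0.05 or more. Eps8 and Capg lie farthest to the right, Ezr and Fscn1 to the left, and the value of Espn, which is listed at or near 0 in TM4 cells, depends on the constant of 0.1.

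Promoter sequence was read for the module because serum response factor, the transcription factor best known for driving actin genes, binds the CArG box, CC and GG around 6 letters that are each A or T. RefSeq promoter windows of the GRCm38 build, from 250 bases before to 50 bases after a transcript start, were found for 43 of the 47 genes, and there was none for Actb, Eps8, Cttn and Diaph1. Searched on both strands, the box was present in 3 of 54 windows of the module (5.56%), in 4 of 83 windows of the other actin genes (4.82%) and in 1.63% of all 32851 windows. The 3 windows belong to Arpc4, Actg1 and Lima1. All 3 genes were lower in TM4 shNC replicates 1 and 2 than in every TM4 shM5 library, as were 28 of the 47 genes of the module. The share of all genes with this order is not given. It leaves out TM4 shNC replicate 3, which was level with or close to shM5 in all 3 genes, at 58.4 RPKM for Arpc4, 2234 for Actg1 and 50.5 for Lima1. The part of each window around the box is shown 5′ to 3′ on the strand of the gene with the box in capitals, at chr6:113377863-113377902 (plus strand), chr11:120348546-120348615 (minus strand) and chr15:99820157-99820226 (minus strand).
Arpc4: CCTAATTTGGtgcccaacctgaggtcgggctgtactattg
Actg1: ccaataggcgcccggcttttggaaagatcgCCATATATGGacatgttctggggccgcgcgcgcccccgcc
Lima1: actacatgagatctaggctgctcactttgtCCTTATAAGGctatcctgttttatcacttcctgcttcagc
The box starts 250 bases before the transcript start in Arpc4, 90 in Actg1 and 47 in Lima1. Srf, which encodes serum response factor, was at 17.9, 17.96 and 30.4 RPKM in TM4 shNC replicates 1, 2 and 3, at 30.2, 30.3 and 30.8 RPKM in TM4 shM5 and at 15.9 to 18.2 RPKM over the C18-4 libraries. A match of letters is a description of the window and not a measurement of binding. A part of serum response factor in the differences between libraries was not tested.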

How the data were processed

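RNA-seq libraries of C18-4 and TM4 cells, 3 with shM5 and 3 with shNC in each line, were grouped by their sample titles, and each column of values was matched to a library by its name. Per the methods, the authors sequenced poly(A)-enriched mRNA (Illumina HiSeq), aligned the reads with SOAPaligner to reference genes and deposited RPKM values, computed from the reads on each gene for gene length and library size, for 17995 genes. The genome build and annotation are not given in the sources used here, and the methods also name FPKM. Their test, DEGseq, needs reads and was not applied. RPKM keeps no read numbers, so no counting interval is given.

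log2(RPKM + 0.1) was fitted with limma (version 3.58.1, R 4.3.3), with eBayes and a mean-variance trend, for genes whose mean over the libraries fitted was 0.5 RPKM or more. p-values are two-sided and adjusted by the Benjamini-Hochberg method over all genes tested, and genes were called at an adjusted p below 0.05. Fold changes are on this scale, which understates low genes. The lines were fitted apart, their difference as an interaction over 12 libraries, and the lines against each other in the shNC libraries. Alternatives were other constants, no filter, quantile normalisation, no trend, the study's threshold, 1 fit of all 12 libraries, the replicate number as a block, and libraries left out. The study's threshold is an adjusted p of 0.001 or less with an absolute log2 fold change of 1 or more. It was set here on limma values and in the study on DEGseq values, so counts at it do not repeat the study's calls.

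Same-numbered C18-4 libraries deviated together from their group means (correlations across genes of 0.439, 0.409 and 0.631), mainly through replicate 3, so the numbers were taken to pair them, from the data and not from a label. In TM4 cells the correlations were 0.073, 0.049 and 0.127, and between the shNC groups -0.303 to -0.198.

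The members, classes and further lists were chosen with earlier results of these data known. Values in every library are given for members called in either fit of shM5 against shNC, for the 8 per line with a mean of 5 RPKM or more and the largest fold change, and for the 12 largest called differences between the lines. Other actin genes are named if called in either fit, or as the 5 largest per direction between the lines. 1 gene that this rule covers is not reported here. Any other gene was named after its values were seen. On simulated data with 200 genes changed, the fit recovered 63% and 94% of genes with log2 changes of 1 and 2 in C18-4 cells (11611 genes, 7 wrong calls) and 67% and 90% in TM4 cells (11016 genes, 6 wrong calls). The simulated spread was independent between genes and libraries, without the shifts of whole libraries seen here. These rates therefore check the fit and do not measure recovery or wrong calls in the real data. Of the marker lists, the summed RPKM of 5 Leydig cell genes was 0.61 to 1.58, of 3 myoid genes 0.97 to 10.04 and of 5 leukocyte genes 1.41 to 4.80 over all libraries. Python 3.11.15, pandas 2.3.3 and matplotlib 3.10.9 were used for tables and figures.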

Additional observations from a re-analysis of the deposited data

How the results depend on the processing

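In C18-4 cells, 68 genes of all tested were called, and 0 of the module. The count of all genes was 4 with no filter on low values, 45 without the variance trend, 143 in 1 fit of 12 libraries and 0 at the study's threshold, with 0 of the module under each. It ranged from 0 to 237 when single libraries were left out, with 237 without shNC replicate 3, 31 without shM5 replicate 3 and 0 without any other, and the module stayed at 0. Without replicate 3 of both groups it was 3029 of 11549 genes tested, and 18 of 45 genes of the module were called. Of these 18, 9 were among the 10 called with the block. With the replicate block, 1386 genes and 10 of the module were called.

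In TM4 cells, 0 genes were called, and leaving out single libraries gave 0 to 7433 genes and 0 to 36 of the module, with every call from leaving out shNC replicate 3. Without replicate 3 of both groups the counts were 8016 of 11030 genes tested and 37 of 44 of the module. The replicate block gave 0 calls of any gene.

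For the difference between the lines in the effect of shM5, 12 genes were called and 0 of the module. The count was 27 with a constant of 1, 21 with no filter, 57 after quantile normalisation, 22 without the trend, 0 at the study's threshold and 2 with the replicate block. Leaving out single libraries gave 0 to 4477 genes and 0 to 23 of the module, with 31 without C18-4 shNC replicate 3 and 4477 and 23 without TM4 shNC replicate 3. Without replicate 3 of all groups the counts were 7022 of 11724 genes tested and 34 of 45 of the module.

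Between the lines, 6517 genes and 25 of the module were called, 2265 (19.2%) and 9 at the study's threshold, 5441 (46.1%) and 19 with the replicate block, whose numbers share nothing known between lines, and 19 to 32 of the module without single libraries. Of the values of single genes named, Rhob between the lines reversed, to -0.0156 (adjusted p 0.834) with the shM5 libraries, and the values of Actb and Actg1, which were not called, turned to 0.16 and 0.13 there. The cause of these changes was not tested. Depth is unknown, which limits statements on genes near 0 RPKM.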
